A study of Mus musculus with 1037 samples.

Results

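The EGF receptor family, its ligands and its feedback inhibitor were followed across hair follicle cells of mouse back skin at the end of hair growth and during follicle regression. The members were 9 genes, taken as the rows of the count table whose Ensembl identifiers carry the symbols *Egfr*, *Erbb2*, *Erbb3*, *Areg*, *Ereg*, *Hbegf*, *Tgfa*, *Btc* and *Errfi1*, out of 55335 genes in all. All 9 were found. Full-length Smart-seq2 libraries of individually sorted cells had been made from wild type mice at 3 stages. Cells of 3 to 6 animals were pooled before sorting, so each sort is 1 sample without replicates, and no p-value or error between animals can be given.

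The AnaVI cells (late hair growth) came as 3 sorts titled LOS, MOS and UOS. By its labels LOS is lower ORS (outer root sheath, the outermost epithelial layer of the follicle), and the labels give MOS and UOS the same region, the upper-middle ORS, although their titles differ. The CatVI cells (regression, day 17 by their titles) came from the upper ORS on 6 plates. Of these, pl1 and pl2 are titled PhagoHFSC alive, pl3 and pl4 NonPhagoHFSC alive, pl5 PhagoHFSC apop and pl6 NonPhagoHFSC apop. The CatVII cells, also upper ORS, are titled OSalive and OSapop. For AnaVI and CatVII the labels give the stage and no age. The sort scheme removed cells positive for Sca1, CD31, CD117, CD140a or CD45, kept cells positive for CD34 and integrin α6, and took annexin V-negative cells as alive.

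Cells with 2000 or more detected genes were kept, 463 of 1035 cells with a group: 39 in LOS, 38 in MOS, 19 in pl1, 9 in pl2, 15 in pl5, 14 in pl6 and 92 in OSapop, with 83.6% of the UOS and 80.1% of the OSalive cells. No cell of pl3 or pl4 passed. Summed counts ran from 1840012 in pl6 to 287377663 in OSalive. Of all counts in passing cells, 78.3% fell on 2 gene identifiers that the annotation does not hold, with 69.05% in pl2 and 79.9% in OSalive as the extremes. Levels are given in CPM (a count divided by the sum over all genes, times 1e+06). Scaling to annotated genes alone moves every ratio of OSalive to UOS, medians included, by 0.37 on the log2 scale, of MOS to UOS by 0.20 and of OSapop to OSalive by −0.13, so that values within these distances of 0 can change sign. Intervals are 95% intervals and cover counting error only, since the libraries carry no molecular identifiers and copies of 1 molecule can be read repeatedly. All 8 ORS and bulge markers exceeded 3 counts in every sort, and together they lay between 1094 CPM in LOS and 6081 CPM in pl5. In 10 LOS, 4 UOS, 2 pl1, 3 pl2, 2 OSalive cells and 1 OSapop cell, markers of immune cells, fibroblasts, melanocytes, Schwann cells and endothelium together outnumbered those of the ORS. Fibroblast markers stood at 1402 CPM in LOS, 353 CPM in UOS, 188.1 CPM in OSalive and 14.7 CPM in MOS. The 4 markers of the inner root sheath, the layer inside the ORS, summed to 742.7 CPM in UOS, 282.7 CPM in LOS, 33.1 CPM in MOS, 41.3 CPM in OSalive, 40.5 CPM in OSapop and 56.4 CPM in the CatVI plates together. The 3 epidermis markers stood at 42 CPM in UOS and between 0.71 and 9.89 CPM in those other sorts. UOS, where both lists are highest, is the second sort in 4 of the 5 comparisons given further on, and the part of these cells in the ratios was not tested.

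The titles of OSalive and OSapop hold 2 running series of sample numbers over the wells of a plate, so that 68 wells are named 2 times in OSalive and 52 in OSapop. Each series runs on from OSalive into OSapop, and the series of larger numbers and that of smaller numbers were also compared separately. The titles do not say what the series are, and 4 passing OSalive cells could not be placed in either. In UOS 40 wells are named 2 times, but 44 passing cells could not be placed.

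Receptors of this family sit in the plasma membrane, pair when a ligand binds, and switch on the Ras and MAP kinase cascade. Ligands are made as membrane proteins and are released by metalloproteases. EGFR and its ligand TGFα are known for their part in hair growth and hair shape, and mice that lack TGFα or have weakened EGFR have wavy hair. ERBB2 binds no ligand of its own and serves as a partner, ERBB3 binds neuregulins and has little kinase activity, and ERRFI1, also called MIG6, binds active EGFR and shuts it down.

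The promoters of *Egfr*, *Areg* and *Errfi1* are shown because these genes stand for the 3 patterns in the data: a receptor counted in nearly every cell, a ligand counted in almost none, and the inhibitor, the 1 member past 2-fold in CatVI against UOS. Each run holds 250 bases before and 50 bases after the start of the canonical transcript, read 5′ to 3′ from GRCm39 with GENCODE positions. Capitals mark the letters of a CRE (TGACGTCA), an AP-1 site (TGANTCA), a GC box (GGGCGG) or a TATA box (TATAAA), searched on both strands, where GC boxes may overlap each other.
Egfr, chr11:16701948-16702247, plus strand: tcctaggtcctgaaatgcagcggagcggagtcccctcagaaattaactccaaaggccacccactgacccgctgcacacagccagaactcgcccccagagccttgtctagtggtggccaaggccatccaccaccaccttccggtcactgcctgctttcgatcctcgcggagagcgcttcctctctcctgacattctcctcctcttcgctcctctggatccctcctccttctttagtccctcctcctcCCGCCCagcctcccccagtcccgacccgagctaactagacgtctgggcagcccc
Areg, chr5:91287201-91287500, plus strand: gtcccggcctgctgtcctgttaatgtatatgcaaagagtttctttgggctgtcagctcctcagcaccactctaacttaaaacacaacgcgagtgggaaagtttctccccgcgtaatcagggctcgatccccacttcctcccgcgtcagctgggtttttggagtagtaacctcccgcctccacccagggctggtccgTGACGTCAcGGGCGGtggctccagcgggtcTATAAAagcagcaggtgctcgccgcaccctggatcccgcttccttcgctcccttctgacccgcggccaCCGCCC
Errfi1, chr4:150939272-150939571, plus strand: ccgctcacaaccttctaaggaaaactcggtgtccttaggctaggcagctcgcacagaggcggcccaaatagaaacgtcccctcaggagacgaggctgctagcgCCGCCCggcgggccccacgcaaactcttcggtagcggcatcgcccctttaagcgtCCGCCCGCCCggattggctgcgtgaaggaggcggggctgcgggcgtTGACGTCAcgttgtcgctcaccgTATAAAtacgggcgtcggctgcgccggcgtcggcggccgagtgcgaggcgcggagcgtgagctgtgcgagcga
The windows of *Areg* and *Errfi1* each held 1 CRE, which starts 54 bases before the transcript start in *Areg* and 46 bases before it in *Errfi1*, and 1 TATA box, 24 and 23 bases before it. Among 21757 protein-coding promoters, 2.45% held a CRE and 13.2% a TATA box of these letters. The *Egfr* window held neither, and its 1 GC box is a motif found in 42.5% of promoters. AP-1 letters were found in the windows of *Erbb3*, *Ereg* and *Tgfa*, against 7.15% of all promoters. The *Errfi1* window had 41 CpG pairs and a CpG observed-to-expected ratio of 1.23, above that of 99.7% of promoters. These are matches of letters, and binding was not measured.

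*Egfr* (ENSMUSG00000020122.16, chromosome 11 of GRCm39 from 16702198 to 16868158), the receptor of all 5 ligands, was the best counted member. Its level was 178.8 CPM in LOS, 271.5 in MOS, 173.4 in UOS, 199.7 in pl1, 106.9 in pl2, 137.9 in pl5, 166.8 in pl6, 152.5 in OSalive and 153.8 in OSapop. MOS was highest, with an interval (260.6 to 282.8 CPM) above that of every other sort, and pl2 lowest. LOS and UOS could not be separated by counting error, and neither could OSalive and OSapop over all their cells. Within the 2 series of the titles, OSapop against OSalive went opposite ways. The log2 ratio was −0.15 (−0.19 to −0.10) in that of larger and 0.17 (0.13 to 0.21) in that of smaller numbers. The plates pl1 and pl2 carry the same label and yet differed by a log2 ratio of 0.90 (0.70 to 1.11), beside a median over all genes of 0.39 for this pair, which was chosen after the values had been seen. In pl2, 68.6% of the counts came from 1 of 9 cells. The 3 pl2 cells led by markers of other cell types held *Egfr* at 1.32 CPM, and the other 6 at 159.6 CPM. *Egfr* was counted in every cell of MOS, UOS, pl5 and OSapop and in 99.2% of OSalive cells. With each cell thinned to 50000 counts, it was found in 97.3% of UOS cells (92.3 to 99.4), 93.5% of OSalive cells (87.7 to 97.2) and 79.2% of all CatVI cells (65.9 to 89.2). Thinning left out the shallower cells, 16 in LOS, 6 in MOS, 1 in UOS, 4 in CatVI, 1 in OSalive and 7 in OSapop. Over single cells the level ran from 10 to 542 CPM in UOS, with a median of 172.8, and from 0 to 777 CPM in OSalive, with a median of 142.5. Reads of *Egfros* and *Eldr*, lncRNA genes on the opposite strand, cannot be told apart from those of *Egfr* where they overlap, since the kit does not mark strand. They held 2556 and 26 counts beside 73410 of *Egfr*.

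*Erbb2* (ENSMUSG00000062312.5, chromosome 11 from 98303203 to 98328542), the partner receptor, stood at 32.6 CPM in LOS, 60.2 in MOS, 49.4 in UOS, 64 in pl1, 55.6 in pl2, 63.4 in pl5, 62 in pl6, 52.9 in OSalive and 47.3 in OSapop. LOS was lowest, with an interval (29.2 to 36.2 CPM) below all others. The intervals of the 4 CatVI plates and MOS overlapped. The order depends on how cells are weighted, since the mean over cells was 50.6 CPM in LOS and 40.4 CPM in UOS. In UOS the 4 cells led by markers of other cell types held *Erbb2* at 123.4 CPM and the rest at 43.3 CPM.

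*Erbb3* (ENSMUSG00000018166.8, chromosome 10 from 128403392 to 128425811), the neuregulin receptor, stood at 28.5 CPM in LOS, 41.8 in MOS, 41.8 in UOS, 33.9 in pl1, 50.3 in pl2, 92.5 in pl5, 27.7 in pl6, 29.9 in OSalive and 31.9 in OSapop. The pl5 plate, Phago apop, lay apart from the rest (83.9 to 101.9 CPM). There *Erbb3* was counted in 15 of 15 cells, with a lowest cell at 15.7, a median of 66.1 and a highest of 261.8 CPM, while the cell medians of the other sorts lay between 3.66 CPM in pl2 and 26.9 CPM in MOS. At 50000 counts per cell it was found in 93.3% of pl5 cells (68.1 to 99.8), 33.3% of pl1 cells (13.3 to 59) and 58.3% of pl6 cells (27.7 to 84.8). Against pl1 and pl2 together, the Phago alive plates, the log2 ratio of pl5 was 1.26 (1.04 to 1.48), a comparison chosen after the values had been seen. It was the only one past 2-fold of the 3 members with 100 counts there. Of 5260 genes with 100 counts, 10.8% were higher and 22% lower by 2-fold or more in pl5. ERBB3 is also a known receptor of the melanocyte and Schwann cell lineage. In pl2, where 3 of 9 cells held *Sox10*, the transcription factor of those lineages, *Erbb3* was at 46.3 CPM in them and 54.6 CPM in the other 6. In OSalive the 2 cells with *Sox10* held *Erbb3* at 70.7 CPM and the rest at 28.8 CPM, and in LOS the 2 such cells held it at 26.9 CPM and the rest at 28.5 CPM. No cell of pl5 held a count of *Sox10*. The 5 melanocyte markers summed to 203.6 CPM in pl2 and 8.01 CPM in pl5, where 2 of them were at 0, and the 3 Schwann cell markers to 71.5 CPM in pl2 and 0 in pl5.

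**Figure D1:**
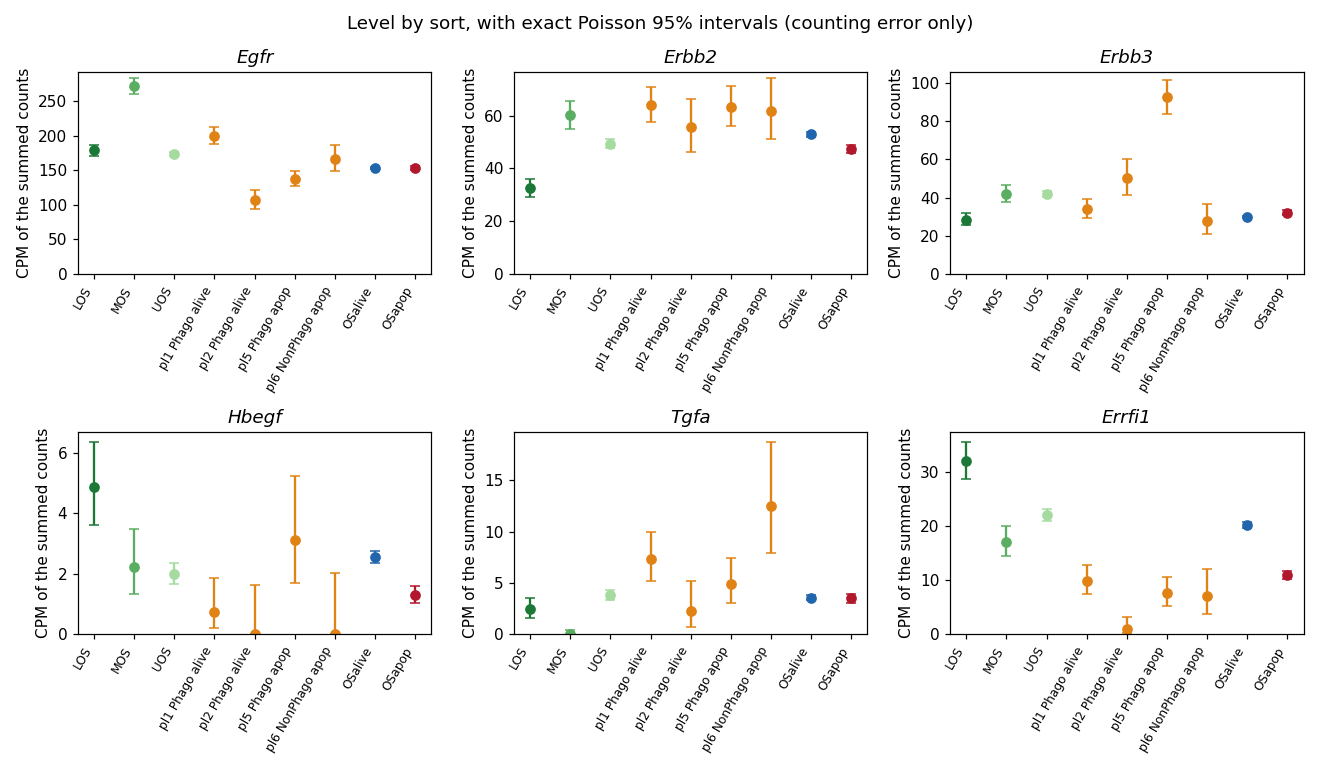
Level of 6 members in each sort, in CPM of the summed counts of passing cells (vertical axis, linear, from 0), with exact Poisson 95% intervals as bars. *Egfr* was highest in MOS at 271.5 CPM, *Erbb3* in pl5 at 92.5 CPM and *Errfi1* in LOS at 32.1 CPM, and *Tgfa* had no count in MOS.

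**Figure D2:**
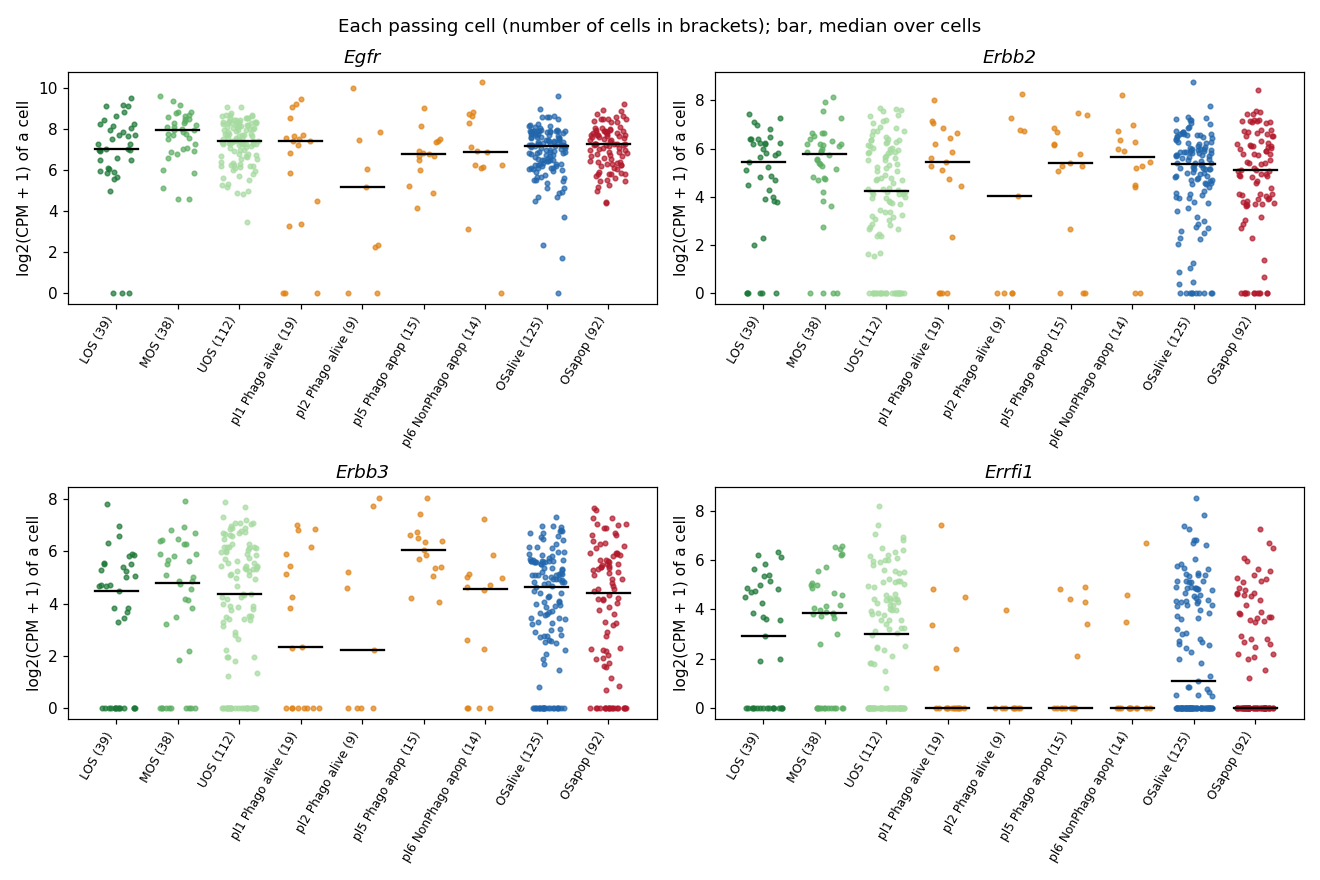
Each point is 1 passing cell, as log2(CPM + 1), with the number of cells in brackets and the median as a bar. *Egfr* was above 0 in nearly every cell, while *Erbb2*, *Erbb3* and *Errfi1* were at 0 in a share of cells in most sorts.

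Levels of different genes were compared per length, as counts per kb of canonical transcript scaled to the same sum over annotated genes. On this scale *Egfr* made up 61.2% of the 3 receptors in LOS, 58.7% in MOS, 50.5% in UOS, 49.3% in OSalive and 50.8% in OSapop. It was the most abundant of the 3 in all sorts but 2. In pl2 *Erbb2* led with 36.7% beside 35.2% of *Egfr*, and in pl5 *Erbb3* led with 37.2% beside 32.7% of *Egfr*. In pl2, 1 cell held 65.1% of the *Erbb2* counts and another 68.6% of the *Egfr* counts. In pl5, 1 cell held 29.6% of the *Erbb3* counts. Whether these leads hold without such cells was not tested. The 3 receptors together lay between 235.5 in pl2 and 561.9 in MOS, and exceeded the 5 ligands together 10.4 times in LOS and 48.5 times in MOS, with the other sorts in between. The MOS value rests on 19 ligand counts, all of *Hbegf*, of which 1 cell held 78.9%. These 5 ligands leave out the neuregulins, which bind ERBB3. In MOS *Nrg1* alone stood at 32.3 on this scale, beside 11.6 for the 5 ligands together. *Erbb4*, the remaining receptor of the family, reached at most 0.982 on this scale, in OSalive.

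All 3 receptors were counted in the same cell in 61.6% of UOS, 75.2% of OSalive and 72.8% of OSapop cells. At 50000 counts per cell the shares were 36% in UOS, 43.5% in OSalive and 43.5% in OSapop, and 62.5% in MOS. Across the cells of a sort Spearman's rho of *Egfr* and *Erbb2* lay between −0.15 in OSalive and 0.13 in OSapop, where the cells share library preparation and each value is divided by its own cell's depth. *Erbb2* and *Erbb3* had a rho of 0.37 in OSapop (92 cells), 0.33 in MOS (38 cells), 0.27 in LOS (39 cells), 0.18 in UOS and 0.046 in OSalive.

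**Figure D3:**
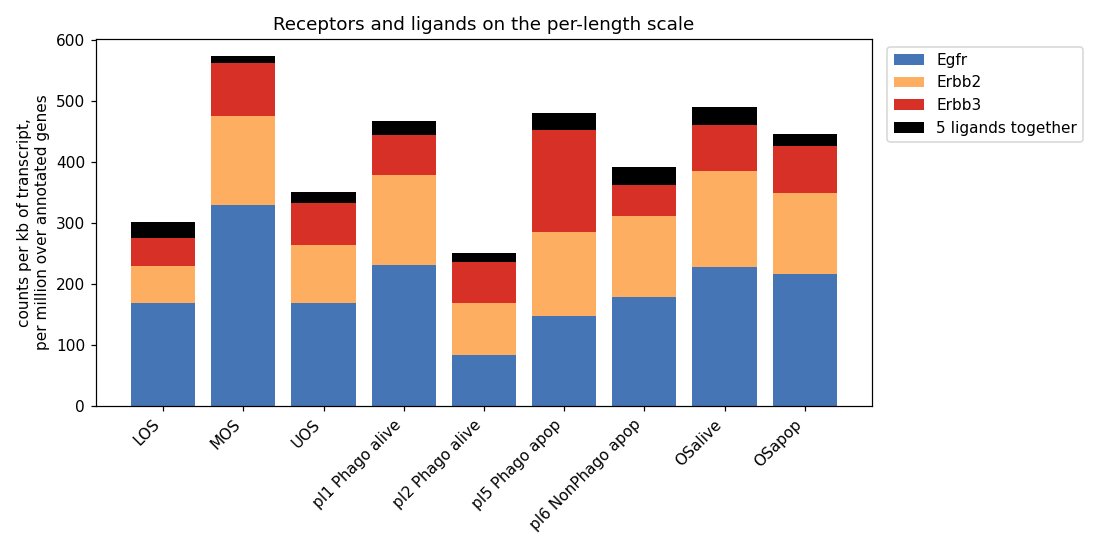
Stacked levels of the 3 receptors and, on top in black, the 5 ligands together, in counts per kb of transcript scaled to 1e+06 over annotated genes (vertical axis, from 0), by sort. *Egfr* was the largest receptor portion except in pl2 and pl5, where single cells held much of the counts. These 5 ligands, which leave out the neuregulins, were a small part of every bar.

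Counts of the 5 member ligands were few and sat in few cells. These 5 together made 2.22 CPM in MOS, the lowest, and 12.5 CPM in pl6, the highest. With *Egf*, *Epgn* and the neuregulins *Nrg1* to *Nrg4* added, MOS was instead the highest at 20.6 CPM, and OSapop the lowest at 5.95 CPM. In MOS *Nrg1* alone stood at 17.9 CPM. *Tgfa* (ENSMUSG00000029999.14, chromosome 6 from 86172041 to 86252728), which encodes TGFα, stood at 2.43 CPM in LOS, 0 in MOS, 3.79 in UOS, 7.29 in pl1, 2.21 in pl2, 4.89 in pl5, 12.5 in pl6, 3.56 in OSalive and 3.49 in OSapop. It was counted in 17.9% of UOS, 12% of OSalive and 20.7% of OSapop cells, and in 0 of 38 MOS cells. The pl6 level rested on 1 cell with 95.7% of its 23 counts. At 50000 counts per cell *Tgfa* was found in 9.91% of UOS cells (5.05 to 17) and 0 of 32 MOS cells (0 to 10.9%), so that the intervals at equal depth overlap.

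*Hbegf* (ENSMUSG00000024486.6, chromosome 18 from 36637980 to 36649677), which encodes heparin-binding EGF-like growth factor, stood at 4.85 CPM in LOS, 2.22 in MOS, 1.99 in UOS, 0.729 in pl1, 0 in pl2, 3.11 in pl5, 0 in pl6, 2.55 in OSalive and 1.29 in OSapop. One cell held 67.3% of its counts in LOS, 78.9% in MOS and 67% in OSapop. It was counted in 15.4% of LOS, 13.2% of MOS, 13.4% of UOS, 7.2% of OSalive and 7.61% of OSapop cells.

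*Areg* (ENSMUSG00000029378.5, chromosome 5 from 91287451 to 91296291) and *Ereg* (ENSMUSG00000029377.5, chromosome 5 from 91222157 to 91241505) encode amphiregulin and epiregulin and are neighbours on chromosome 5. *Btc* (ENSMUSG00000082361.6, chromosome 5 from 91505120 to 91550883), which encodes betacellulin, is on the same chromosome. *Areg* had 15 counts in 2 OSalive cells, 4 in 1 pl2 cell, 2 in UOS and 1 in LOS, and none elsewhere. *Ereg* had 19 counts in 3 UOS cells and 1 count in OSalive. *Btc* had 64 counts in 2 OSalive cells, 36 in 2 OSapop cells, 15 in 2 UOS cells, 4 in 1 LOS cell and 1 in pl5. In OSapop, 0 counts of *Areg* and of *Ereg* allow a level of up to 0.0411 CPM (3 counts of the total), and in pl6 up to 1.63 CPM, so these genes were not detectable rather than absent.

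*Errfi1* (ENSMUSG00000028967.10, chromosome 4 from 150938376 to 150955402), the feedback inhibitor, stood at 32.1 CPM in LOS, 17.1 in MOS, 22.1 in UOS, 9.85 in pl1, 0.883 in pl2, 7.56 in pl5, 7.07 in pl6, 20.2 in OSalive and 10.9 in OSapop. The CatVI plates and OSapop were the 5 lowest. It was counted in 59.8% of UOS, 56% of OSalive and 45.7% of OSapop cells and in 16 of 57 CatVI cells. At 50000 counts per cell the shares were 65.2% in LOS (42.7 to 83.6), 43.8% in MOS (26.4 to 62.3), 36% in UOS (27.1 to 45.7), 15.1% in CatVI (6.75 to 27.6), 28.2% in OSalive (20.5 to 37) and 28.2% in OSapop (19 to 39). In LOS 66.6% of the counts came from 1 cell. The 10 LOS cells led by markers of other cell types held *Errfi1* at 56 CPM, *Hbegf* at 9.08 CPM and *Egfr* at 120 CPM, against 14, 1.64 and 223.4 CPM in the other 29. The 2 such OSalive cells held *Errfi1* at 330 CPM and the rest at 17.1 CPM.

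*Errfi1* is an immediate response gene in many cells. A list of 14 dissociation stress genes, *Fos* and *Jun* among them, stood at 1348 CPM in OSalive, 782 CPM in OSapop, 1080 CPM in UOS and 621 CPM in the CatVI plates together. The order of the list was not that of summed *Errfi1* throughout. LOS, with the highest *Errfi1*, had 760 CPM of the list, and pl2, with the lowest from 2 counts, 931 CPM. In LOS 1 cell held 66.6% of the *Errfi1* counts. The mean of *Errfi1* over cells was 17.4 CPM in LOS and 22.2 CPM in UOS. Of the 14 genes 3 were lower by 2-fold in OSapop against OSalive (median −0.77), where 11.3% of all genes were, and 4 in CatVI against UOS (median −0.84), where 24.9% of all genes were. Against UOS, 4 were lower in LOS (median −0.79), beside 14.3% of all genes. There *Errfi1* was higher in summed counts and lower as a mean over cells. In these 3 comparisons 0 of the 14 were higher by 2-fold, beside 10.6%, 12.9% and 14.1% of all genes. In OSalive against UOS 5 were higher and 3 lower (median 0.66), beside 11.5% and 26.6% of all genes. In MOS against UOS 3 were higher and 3 lower (median −0.49), beside 6.56% and 23.2% of all genes. Their part in the levels of *Errfi1* was not tested. Across the cells of OSalive the rho of *Errfi1* with the list was 0.32 and with *Egr1*, a target of the MAP kinase cascade, 0.41. In OSapop these were −0.021 and 0.17 (92 cells), and in UOS 0.18 and 0.26. With *Dusp6*, *Ier3* and *Phlda1*, further genes of the pathway, the rho of *Errfi1* was 0.19, 0.089 and 0.039 in OSalive. The same rho was 0.047, −0.066 and 0.066 in OSapop, and 0.14, 0.050 and −0.043 in UOS. The cells share their library preparation, and the relations with single genes were looked at after the values had been seen.

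Comparisons between sorts used log2 ratios of CPM, and a member was counted as past 2-fold with 100 or more counts over both sorts. UOS is shared by 4 of the 5 comparisons, so these are not independent. From AnaVI to CatVII, OSalive against UOS, 0 of 6 members with 100 counts were past 2-fold, while 11.5% of 14159 genes were higher and 26.6% lower by that much. The median over the 6 was −0.11, beside −0.32 over all genes, and both come out above 0 with scaling to annotated genes. The log2 ratio of *Egfr* was −0.19 (−0.21 to −0.16) and turned to 0.19 with scaling to annotated genes. That of *Errfi1* was −0.13 (−0.21 to −0.047) and turned to 0.25 with that scaling, and that of *Tgfa* was −0.092 and turned to 0.28. *Erbb3* was at −0.48 (−0.55 to −0.42) and stayed below 0 in every alternative. It shrank to −0.11 with scaling to annotated genes and to −0.053 with median-of-ratios factors. Beside 29.9 CPM in OSalive, *Erbb3* stood at 30.7 CPM (28.7 to 32.7) in the UOS series of larger numbers. In that of smaller numbers it stood at 32.5 CPM (28.9 to 36.5), and in the 44 UOS cells not placed at 56.3 CPM. *Ereg*, below the count minimum, went from 19 counts in UOS to 1 in OSalive, a log2 ratio of −6.32 (−11.7 to −3.67), with 89.5% of the UOS counts in 1 cell.

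In CatVII, OSapop against OSalive, 1 of 7 members was past 2-fold, *Btc*, higher at 0.493 against 0.223 CPM, or 1.15 (0.51 to 1.76) on the log2 scale. This rests on exactly 100 counts, from 2 cells in each sort, and the mean over cells gave −0.51. Of 13886 genes 10.6% were higher and 11.3% lower. Just under 2-fold lay *Hbegf*, at −0.99 (−1.31 to −0.67), and *Errfi1*, at −0.89 (−1.0 to −0.78). Both went past 2-fold with scaling to annotated genes, at −1.12 and −1.02. Among cells placed in a series, both differences lay in 1 series of the titles, a comparison added after the values had been seen. In the series of larger numbers *Errfi1* stood at 7.51 CPM in 47 OSapop cells and 24.9 CPM in 61 OSalive cells, a log2 ratio of −1.73 (−1.91 to −1.56). In the series of smaller numbers it stood at 14.99 CPM in 45 and 15.7 CPM in 60 cells, a log2 ratio of −0.067 (−0.21 to 0.072). *Hbegf* had 25 counts in OSapop and 575 in OSalive in the first, a log2 ratio of −2.89 (−3.53 to −2.31), and 69 and 0 counts in the second, so that its direction turned. *Erbb2* was at 0.24 (0.16 to 0.31) in the first and −0.48 (−0.56 to −0.40) in the second, *Erbb3* at 0.31 (0.22 to 0.40) and −0.27 (−0.37 to −0.16), and *Egfr* at −0.15 (−0.19 to −0.10) and 0.17 (0.13 to 0.21). *Tgfa* was at 0.79 (0.47 to 1.11) and −0.25 (−0.53 to 0.025). The direction of all 3 receptors thus differed between the series.

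Over both series together, *Egfr*, *Erbb2*, *Erbb3* and *Tgfa* lay between −0.16 and 0.097, where *Egfr* and *Erbb3* change sign with scaling to annotated genes, beside a median over all genes of 0.12 and of −0.027 over the 7 members.

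Within AnaVI, MOS against UOS, 1 of 6 members was past 2-fold, *Tgfa*, at least 10.8-fold lower in MOS, where it had 0 counts. One cell held 44% of the UOS counts, and the bound on the log2 scale was −3.43 with all cells, −2.60 without that cell and −1.67 with thinned cells. Of 11114 genes 6.56% were higher and 23.2% lower by 2-fold or more. *Egfr* was higher in MOS by a log2 ratio of 0.65 (0.58 to 0.71), which fell to 0.33 without the cell with most of its counts in each sort. *Erbb2* was at 0.29 (0.15 to 0.42), and *Erbb3* had 41.8 CPM in both (log2 interval −0.16 to 0.16), beside a median over all genes of −0.31 and of 0.080 over the 6 members.

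For LOS against UOS, 1 of 6 members was past 2-fold, *Hbegf*, higher in LOS by a log2 ratio of 1.29 (0.80 to 1.76), beside 14.1% of 11473 genes that were higher and 14.3% lower. The median was −0.26 over the 6 members and 0.041 over all genes. Without the cells led by markers of other cell types *Hbegf* was at −0.36, and without the cell with most of its counts at 0.40. *Errfi1* behaved likewise, from 0.54 (0.36 to 0.71) to −0.68 and −0.45. *Erbb2* and *Erbb3* were at −0.60 (−0.76 to −0.44) and −0.55 (−0.73 to −0.38). *Erbb2* turned to 0.32 as a mean over cells, while *Erbb3* stayed between −0.78 and −0.40 over the alternatives. *Erbb3* stood at 28.5 CPM in LOS, and at 30.7, 32.5 and 56.3 CPM in the UOS cells of larger numbers, smaller numbers and not placed.

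For the CatVI plates together against UOS, 1 of 6 members was past 2-fold, *Errfi1*, lower by a log2 ratio of −1.60 (−1.90 to −1.31), beside 12.9% of 11497 genes that were higher and 24.9% lower. The median was 0.11 over the 6 members and −0.18 over all genes. It was below UOS in all 4 plates and between −1.96 and −0.80 over the alternatives, the smallest with each cell thinned to 50000 counts. *Tgfa* was higher by 0.75 (0.39 to 1.11). It stood at 6.39 CPM, beside 1.45, 3.09 and 6.44 CPM in the UOS cells of larger numbers, smaller numbers and not placed. *Erbb3*, at 0.38 (0.27 to 0.50), turned to −0.19 without pl5, the Phago apop plate. *Erbb2* was at 0.33 (0.22 to 0.44) and *Egfr* at −0.11 (−0.17 to −0.045).

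**Figure D4:**
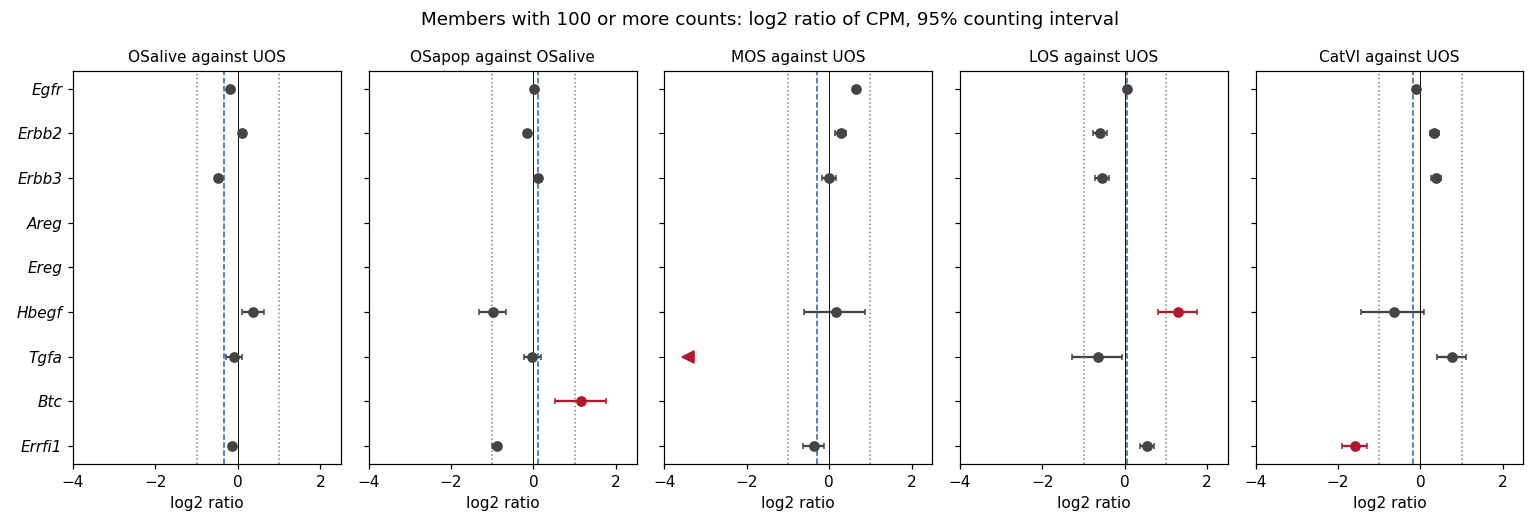
Log2 ratio of CPM of the first sort to the second (horizontal axis) for each member with 100 or more counts, with 95% counting intervals. Dotted lines mark 2-fold, the dashed line the median of all genes, red points members past 2-fold, and the arrowhead of *Tgfa* an upper bound from 0 counts in MOS.

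**Figure D5:**
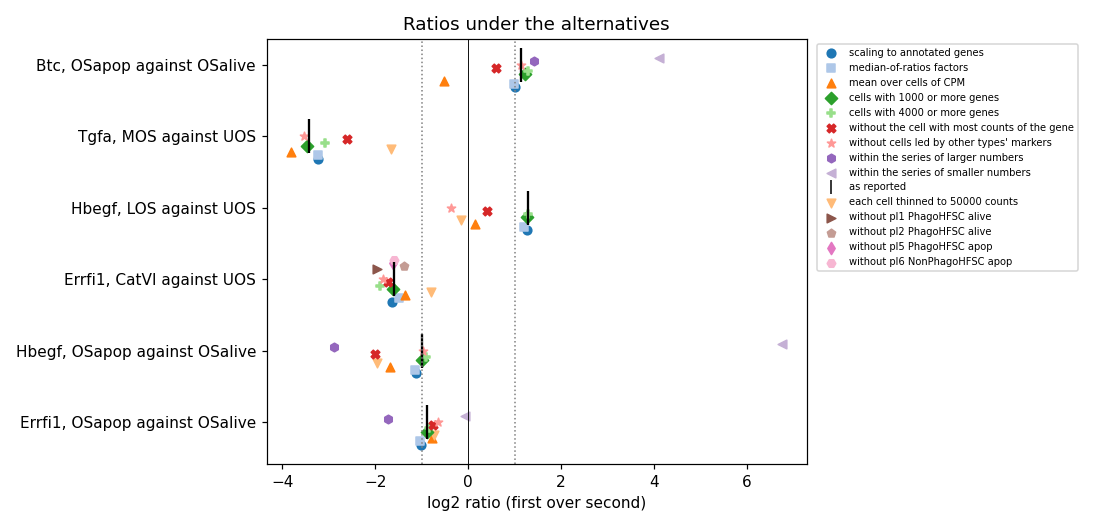
Log2 ratio (horizontal axis) of the 4 members past 2-fold and of *Hbegf* and *Errfi1* in OSapop, under each alternative (symbols) and as reported (black bar). *Errfi1* stayed below 0 in both comparisons, at −0.067 in the series of smaller numbers of OSapop against OSalive, and *Hbegf* in LOS ran from −0.36 to 1.29. The points of *Hbegf* at 6.77 and *Btc* at 4.12 are bounds, since OSalive had 0 counts in that series.

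Of 48 other genes of the pathway, 44 had 100 counts in OSalive against UOS. By 2-fold 3 were higher and 9 lower, beside 11.5% and 26.6% of all genes. The median was −0.16, beside −0.32 over all genes, and both come out above 0 with scaling to annotated genes. Further ligands and receptors ranked at the ends of the list. *Erbb4* and *Egf* were higher in OSalive, at 0.800 and 0.581 CPM against 0.249 and 0.234 in UOS, and *Nrg4*, a neuregulin, was lower, at 0.0418 against 1.35 CPM. *Fosl1*, an AP-1 subunit induced by the cascade, was higher, at 0.473 against 0.0732 CPM, and *Hras* was lower, at 4.09 against 24.1 CPM. *Dusp4*, a MAP kinase phosphatase, was lower at 0.470 against 1.96 CPM.

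In OSapop against OSalive 0 of 43 were higher and 5 lower (median 0.095), beside 10.6% and 11.3% of all genes (median 0.12). *Nrg1*, a ligand of ERBB3, was lowest at 0.438 against 2.54 CPM, followed by *Dusp4* at −2.29 and *Egf* at −1.82 on the log2 scale. These 3 genes had 32, 7 and 12 counts in OSapop. The highest were *Map2k1* (0.97), *Lrig1*, a transmembrane inhibitor of EGFR (0.87), and *Spred1* (0.80). Ratios of pathway genes were taken over both series of the titles together and were not split by series. In MOS against UOS 2 of 39 were higher and 5 lower (median −0.019), beside 6.56% and 23.2% of all genes (median −0.31). *Ccnd1* (1.09), *Nrg1* (0.99) and *Sos2*, at 18.96 against 8.74 CPM, were highest, and *Etv5* (−2.66), *Spry1* (−2.76) and *Dusp4* (−4.07, from 1 count, interval −9.38 to −1.56) were lowest. *Etv5* and *Spry1* are known targets of the cascade.

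In LOS against UOS 3 of 40 were higher and 9 lower (median −0.17), beside 14.1% and 14.3% of all genes (median 0.041). *Spry4* (2.56), *Dusp4* (2.13) and *Adam10*, a protease that releases ligands (1.27), were highest and *Egr1* (−1.63), *Etv5* (−2.28) and *Ier3* (−3.07) lowest. In the CatVI plates against UOS 4 of 40 were higher and 9 lower (median −0.080), beside 12.9% and 24.9% of all genes (median −0.18). *Cblb*, a ubiquitin ligase, was highest at 64.1 against 21.3 CPM, then *Gab1*, an adaptor, at 53.6 against 18.4, and *Etv4* at 3.69 against 1.59. *Nrg1* was lowest, with 2 counts against 618 and a log2 ratio of −5.99 (−9.04 to −4.13), then *Etv5* at −2.83 and *Phlda1* at −2.33. Of the 8 response genes, 7 had 100 counts there, and 4 were lower and 1 higher by 2-fold (median −1.36), beside 24.9% and 12.9% of all genes. In LOS against UOS 3 of 7 were lower and 0 higher (median −0.77), beside 14.3% and 14.1%. In MOS against UOS 3 of 7 were lower and 1 higher (median −0.60), beside 23.2% and 6.56%. In OSapop against OSalive 1 of 8 was lower and 0 higher (median −0.70), beside 11.3% and 10.6%. In OSalive against UOS all 8 had 100 counts, with 2 lower and 1 higher and a median of 0.41, beside 26.6% and 11.5%.

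Over the 9 sorts, the genes whose log2(CPM + 1) followed each member best, out of 1623 genes with a symbol and 50 CPM or more in a sort, were *Hadha*, *Cdh3* and *Ltbp3* for *Egfr* (Pearson's r of 0.97, 0.96 and 0.89), *Lad1*, *Arrdc3* and *Rapgefl1* for *Erbb2* (0.92, 0.90 and 0.88), and *Reep5*, *Abcc1* and *Zfp276* for *Erbb3* (0.87, 0.87 and 0.86). They were *Mef2a*, *Zfp185* and *Tsix* for *Tgfa* (0.96, 0.93 and 0.89) and *Fzd1*, *Neo1* and *Gm38431* for *Errfi1* (0.95, 0.92 and 0.92). The 9 points differ in depth and cell number, and those of the 4 plates rest on 9 to 19 cells each.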

How the data were processed

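Single-cell RNA was measured in 1037 samples, 1 cell each, of which 1036 have a column of counts. The authors trimmed and aligned the reads (STAR 2.6, mm39), quantified them with Salmon 1.4.0 and deposited estimated counts per gene without normalization. The annotation release they used is not given in the sources used here. Counts were rounded, 92 spike-ins were kept apart, and 93.3% of identifiers were named from GENCODE vM39 on GRCm39. Wells with several cells had been excluded by the authors with a Gapdh PCR, and no doublet caller was run. No 2 passing cells had identical counts. The table holds expected counts in which 0.471% of values are not whole.

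Counts of passing cells were summed per sort and divided by the sum over all genes. Intervals are exact Poisson (CPM), exact binomial (ratios) and Clopper-Pearson (shares) at 95%. A sort at 0 was set to 3 counts for a bound, and no bound is given where that floor exceeds the other level. Named are all members, the 3 highest and 3 lowest pathway genes with 100 counts in each comparison, and the 3 genes most like each member at 10 CPM or more in a sort. Members and lists were chosen with earlier results of these data known. On simulated Poisson counts with true changes of 2-fold or more, 200 of 200 changed genes had the right sign in each comparison. These counts lack the uneven spread over cells of the real data. They therefore check the computation of the ratios, not the reliability of a measured sign. Alternatives concerned scaling, weight of cells, depth, the filters, single cells and plates. The set without cells led by markers of other types, the split by Sox10, the comparisons among CatVI plates, the ratios within each series of sample numbers and the relations of Errfi1 with single genes were added after seeing the data. Python 3.11.15, numpy 2.4.6, pandas 2.3.3, scipy 1.17.1 and matplotlib 3.10.9 were used. The 572 cells under the minimum of genes entered no comparison. No protein sequences are shown, and no promoter sequence of Hbegf.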

Additional observations from a re-analysis of the deposited data

Results flagged for a closer look

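A cell titled as OSapop, a CatVII sort, but labelled CatVI belongs to no group and entered no comparison. It had 52544 gene counts, of which 6 were of *Erbb2* and 6 of *Tgfa*, a level of 114.19 CPM each, and 3 of *Egfr*. Both lie above the 3 counts set as the floor for a count of 0. In the sorts, *Erbb2* lay between 32.6 and 64 CPM and *Tgfa* between 0 and 12.5 CPM over summed cells, while single cells reached 429 CPM of *Erbb2* and 336 CPM of *Tgfa*. With 6 counts in 1 cell, no difference from the sorts was tested.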

How the results depend on the processing

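The number of members past 2-fold stayed within 1.5 times in 38 of 51 alternatives over the 5 comparisons, but not always with the same genes. In OSalive against UOS it was 0 and became 1 without a minimum of counts (*Ereg*). In OSapop against OSalive it was 1 and became 3 with scaling to annotated genes and 2 with median-of-ratios factors, 2 within the series of larger numbers in the titles (*Hbegf* and *Errfi1*, both lower) and 0 within that of smaller numbers, and *Hbegf* took the place of *Btc* when CPM was averaged over cells, when cells were thinned to 50000 counts, and without the cell with most counts of the gene. In MOS against UOS it became 2 with thinned cells and without that cell, with *Hbegf* joining *Tgfa*. In LOS against UOS it became 0 without that cell, and *Tgfa* took the place of *Hbegf* when averaged over cells, with thinned cells and without cells led by markers of other types, an alternative added after seeing the data. In CatVI against UOS it became 2 as a mean over cells (*Tgfa* higher, *Errfi1* lower), 2 at 50000 counts, where *Errfi1* was at −0.80, 3 without the cell with most counts, 3 without a minimum, and 2 without pl5. Of the members past 2-fold, the sign turned for *Btc* in OSapop as a mean over cells (−0.51) and for *Hbegf* in LOS with thinned cells (−0.14) and without cells led by markers of other types (−0.36). Of the 31 ratios of members with 100 counts, 12 kept their sign in every alternative and 19 did not. Among the latter were *Errfi1* in LOS (0.54, and −0.68, −0.45 and −0.35 without the cells led by markers of other types, without the cell with most counts and as a mean over cells) and, as means over cells, *Erbb2* in LOS (−0.60 to 0.32) and *Hbegf* in CatVI (−0.64 to 0.75). Apart from the weighting, fewer counts or cells in these settings, the cause was not tested. *Areg* and *Ereg* had under 100 counts in every comparison, and *Btc* in all but OSapop against OSalive. Stage and library batch cannot be told apart. No paired analysis was possible because each sort is 1 pooled sample without a test, and its titles carry wells and running numbers, not replicate numbers.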
